A study of Mus musculus with 8 samples.

Results

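The genes described here encode the voltage-gated sodium channels, the voltage-gated calcium channels and the hyperpolarization-activated pacemaker channels, with their auxiliary subunits. They were chosen by symbol alone: every gene whose symbol on the array is Scn with a number and the letter a or b, begins with Cacna, Cacnb or Cacng, or is Hcn followed by a digit up to 4. This gave 41 genes of the 27689 symbols or other feature names on the array, and 21 of the 41 were bright enough to be tested, beside 15681 tested features in all. Measured were the hearts of 4 male mice aged 12 weeks that overexpress PKR2, taken to be prokineticin receptor 2, a receptor of the G protein-coupled class, and the hearts of 4 wild-type (WT) male mice of the same age. Each heart's RNA was labelled with the dye Cy3 and hybridised to its own 1-colour array. The labels give no promoter, line or founder for the overexpression, and nothing on littermates or on the part of the heart that was taken, so p-values measure only the spread between these hearts.

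Sodium channels carry the fast inward current that starts the action potential in working heart muscle. L-type calcium channels then admit the calcium that triggers release from the sarcoplasmic reticulum, and T-type calcium channels open at more negative potentials, mainly in pacemaker and conduction cells of the adult heart. HCN channels carry the inward pacemaker current that sets in as the sinoatrial node cell repolarises. In both sodium and calcium channels a large alpha subunit forms the pore, and smaller subunits (beta in sodium channels, beta and alpha2delta in calcium channels) steer it to the membrane and tune its gating.

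Levels below are the log2 processed signal of a gene's brightest probe minus the array's 75th percentile, so that 0 is that percentile. They describe 1 probe each and do not rank genes against each other. The 75th percentile of processed signal ran from 38.1 on the array of WT 2 to 736 on that of PKR2 1, and between 47.7% and 66.5% of the probes of an array were well above background. Of the 41 channel genes, between 18 and 26 were well above background on a given array. All 14 cardiomyocyte markers were bright enough to be tested. The Prokr2 probe was well above background on 0 of the 8 arrays, so it gives no check of the genotype labels; a transgene without the probed stretch would escape it. One list of markers had the widest median difference: all 11 tested adipocyte and brown fat markers had lower means in PKR2 hearts (median difference -2.18), 10 of them under normexp background correction, and 0 were called. In the fit reported, 8 of the 11 had an unadjusted limma p under 0.05, against 2.4% of all features. With slide as a fixed block 8 of the 11 were lower, the median was -0.11 and 0 had an unadjusted limma p under 0.05; with array weights the median was -0.66. Without PKR2 1 and PKR2 2, left out after the data were seen, 9 of the 11 were lower and the median was -0.35. Their mean level, each gene centred on its mean over the 8 arrays, was -2.20, -2.04, 0.59 and 0.28 in PKR2 hearts 1 to 4, against 1.20, 1.16, -0.14 and 1.16 in WT hearts 1 to 4.

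No channel gene passed the test between the groups. Of the 21 tested, 0 had a limma adjusted p under 0.05 in either direction, as did 0 of all 15681 features (0%), and the smallest adjusted p of any feature was 0.0748. At an unadjusted p under 0.05 there were 2 channel genes, Cacna1h with lower and Cacnb2 with higher signal in PKR2 hearts, which is 9.52% of those tested against 2.4% of all features. By direction that background was 0.969% of features higher and 1.43% lower. Of the 21 genes, 10 had a higher mean in PKR2 hearts and 11 a lower one. Their median difference, PKR2 minus WT, was -0.01 on the log2 scale, as was the median over all tested features. The median size of the difference regardless of sign was 0.11 for the channel genes and 0.12 for all features. The few arrays set the precision: half-widths of the 95% intervals, before adjustment, had a median of 0.54 over the channel genes. A larger difference, that of Cacna1h at -0.68, still had a limma adjusted p of 0.99997. Changes beyond 0.54 on the log2 scale could thus also go uncalled here. In these bulk samples, fewer cells of a type and less RNA per cell cannot be told apart.

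**Figure D1:**
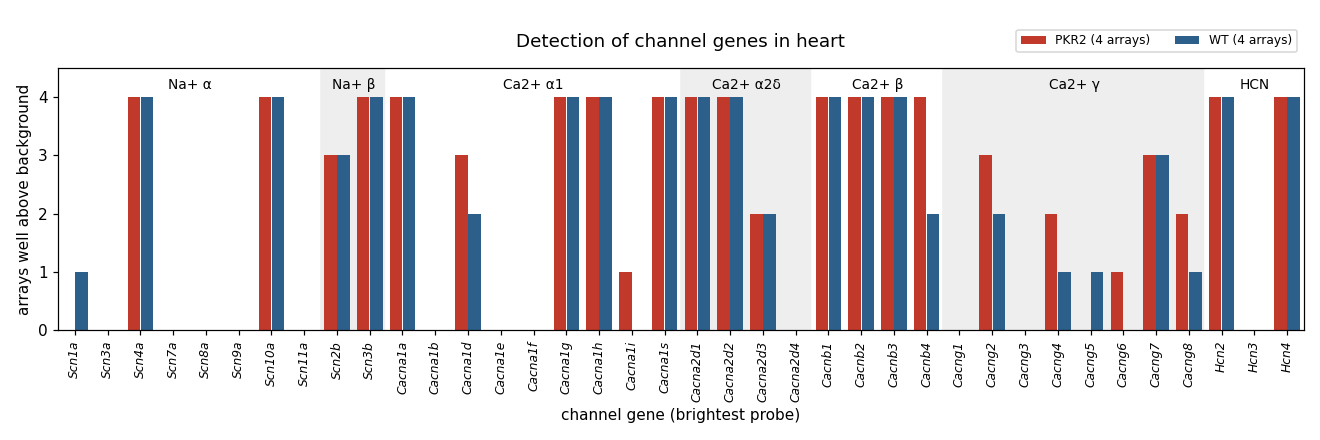
Number of arrays (0 to 4 in each group) on which the brightest probe of each of 38 channel genes was well above background, with PKR2 bars left of WT bars and the genes ordered by subunit family. Of the 38 genes, 14 reach all 4 arrays in both groups and 12 have no bar in either group.

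Detection differed between the subunit families. Of the 41 genes, 16 were well above background on all 8 arrays, 12 on 0 arrays, and the other 13 on 1 to 6. Among 9 sodium channel alpha genes, 3 were on all 8 arrays, among them Scn4a, which encodes the sodium channel of skeletal muscle, and Scn10a, known from sensory neurons. A group of 5 was on 0 arrays, namely Scn3a, Scn8a and Scn9a, which encode neuronal sodium channels, Scn11a, known from sensory neurons, and Scn7a, which encodes a sodium-sensing relative. Scn1a, another neuronal sodium channel gene, was above background on 0 PKR2 arrays and 1 WT array. Of the 18 neuron markers measured beside them, 5 were tested, among them Uchl1, Phox2a, Chat and Stmn2. Another 8 were on 0 arrays, including Th, Snap25 and Prph. All 3 sodium channel beta genes in the set were tested, among them Scn2b and Scn3b.

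Among 9 calcium channel alpha1 genes, 4 were on all 8 arrays: Cacna1g and Cacna1h, which encode T-type pores, Cacna1s, the L-type pore of skeletal muscle, and Cacna1a, a pore best known from presynaptic terminals. Cacna1d, an L-type pore also found in the sinoatrial node, was above background on 3 PKR2 arrays and 2 WT arrays. Cacna1b and Cacna1e, which encode neuronal pores, and Cacna1f, the L-type pore of the retina, were on 0 arrays, and the T-type gene Cacna1i was on 1 PKR2 array and 0 WT arrays. All 4 calcium channel beta genes were tested, as were 2 of 4 alpha2delta genes, Cacna2d1 and Cacna2d2. The alpha2delta gene Cacna2d3 was on 2 PKR2 arrays and 2 WT arrays, and Cacna2d4 on 0.

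The gamma genes, which encode 4-pass membrane proteins named after the subunit of the skeletal muscle calcium channel, had no member on all 8 arrays. Cacng7 was on 3 PKR2 and 3 WT arrays and Cacng2 on 3 PKR2 and 2 WT arrays, and both were tested. Cacng4 and Cacng8 were each on 2 PKR2 arrays and 1 WT array, Cacng5 on 0 PKR2 arrays and 1 WT array, and Cacng6 on 1 PKR2 array and 0 WT arrays. Cacng1, the gamma subunit of the skeletal muscle channel, and Cacng3 were on 0 arrays. Of the other components of that channel, Cacna1s, Cacnb1 and Cacna2d1 were on all 8 arrays. Of 13 skeletal muscle markers, 7 were tested.

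Of the 4 pacemaker channel genes, Hcn4, the main pacemaker isoform of the sinoatrial node, and Hcn2 were on all 8 arrays. Hcn3 was on 0 arrays. Of the untested genes named here, every one that was above background in 1 group only gave a bound under 1 and so no fold.

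Probes of 1 gene did not always share detection. Of the 41 genes 21 had several probes. Beside its brightest probe on all 8 arrays, Hcn4 had a second one on 1 PKR2 array and 0 WT arrays, as had Cacna1a. Scn3b had 1 further probe on 1 PKR2 array and 1 on 0 arrays, and so had Cacna2d2 beside its pair on all 8. Cacna1h had probes on 8, 7, 3 and 1 arrays. Among the dimmer genes, Cacna1d had probes on 5, 1, 0 and 0 arrays, Cacnb4 on 6, 6, 1 and 0, and Cacng2 on 5, 2, 1 and 0. A second Scn1a probe was on 0 arrays.

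Promoter sequence was set beside this detection pattern as a description. RefSeq promoters of build GRCm38.p6, running from 250 bases before to 50 bases after a gene's start, were at hand for 29 of the 41 genes, 37 windows in all. The median window held 26 CG pairs for genes on all 8 arrays (13 windows), 9 for genes on 0 arrays (9 windows) and 7 for all 32851 mouse promoters. The windows of Scn8a (38 and 12 pairs) and Cacna1b (35 pairs) run against that order, since both genes were on 0 arrays, as do windows of genes on all 8 arrays: Cacnb1 (3 pairs in 1 of its windows), Scn4a (4), Cacnb2 (4 in 1 window), Cacnb3 (7 in 1 window) and Cacna1s (9). The motif GGGCGG, searched on both strands, occurred in 69.2% of windows of genes on all 8 arrays, 33.3% of those on 0 arrays and 35.7% of all promoters. TATAAA, searched likewise, occurred in 1 of the 37 windows, a start of Cacna1d, and in 13.6% of all promoters. Shown are Hcn4, on all 8 arrays, and Scn11a, on none, as 1 window rich and 1 poor in CG pairs, and both annotated starts of Cacnb2, the gene whose groups did not overlap; its probes do not tell the starts apart. Each is written 5′ to 3′ on the gene's strand, with CG pairs in capitals. The positions are chr9:58822699-58822998 (plus strand, 31 CG pairs), chr9:119825407-119825706 (minus strand, 3), chr2:14604056-14604355 (plus strand, 35) and chr2:14823842-14824141 (plus strand, 4).
Hcn4: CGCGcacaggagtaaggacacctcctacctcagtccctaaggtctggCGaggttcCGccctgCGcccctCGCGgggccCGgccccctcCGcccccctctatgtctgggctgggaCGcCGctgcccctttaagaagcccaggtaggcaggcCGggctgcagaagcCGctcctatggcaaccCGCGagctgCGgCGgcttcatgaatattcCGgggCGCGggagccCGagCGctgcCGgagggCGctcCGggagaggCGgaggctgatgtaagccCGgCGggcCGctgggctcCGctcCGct
Scn11a: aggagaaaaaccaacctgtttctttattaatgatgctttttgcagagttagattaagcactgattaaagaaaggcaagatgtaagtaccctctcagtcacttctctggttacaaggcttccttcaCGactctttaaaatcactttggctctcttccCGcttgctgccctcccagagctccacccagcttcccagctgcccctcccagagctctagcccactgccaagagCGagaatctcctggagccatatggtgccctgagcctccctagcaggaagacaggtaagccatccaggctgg
Cacnb2 upstream start: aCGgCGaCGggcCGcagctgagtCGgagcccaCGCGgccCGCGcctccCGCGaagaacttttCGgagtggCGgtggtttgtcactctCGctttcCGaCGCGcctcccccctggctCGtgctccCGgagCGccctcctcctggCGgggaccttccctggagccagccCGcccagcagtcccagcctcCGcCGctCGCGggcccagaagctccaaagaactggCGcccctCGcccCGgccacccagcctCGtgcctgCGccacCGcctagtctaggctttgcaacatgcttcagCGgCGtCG
Cacnb2 downstream start: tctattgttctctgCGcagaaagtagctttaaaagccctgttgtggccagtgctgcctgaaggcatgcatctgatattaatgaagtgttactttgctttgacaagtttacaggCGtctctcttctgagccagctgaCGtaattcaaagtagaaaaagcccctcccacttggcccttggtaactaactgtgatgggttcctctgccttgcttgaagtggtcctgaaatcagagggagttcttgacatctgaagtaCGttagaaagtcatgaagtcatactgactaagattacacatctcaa

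The 2 sodium channel pore genes described here overlapped between the groups. Scn4a had levels of -0.88, -1.25, -1.27 and -1.31 in PKR2 hearts 1 to 4, against -0.99994, -0.90, -1.23 and -1.86 in WT hearts 1 to 4. PKR2 1 was the highest heart and WT 4 the lowest, the groups overlapped, and the difference was 0.07 (SE 0.22); without WT 4 it was -0.13. Scn10a had levels of -1.64, -2.24, -2.38 and -2.32 in PKR2 hearts 1 to 4, against -2.06, -2.17, -2.40 and -2.63 in WT hearts 1 to 4. The difference was 0.17 (SE 0.21), with PKR2 1 above all the others. A dimmer Scn10a probe, above background on 3 PKR2 and 2 WT arrays, had the opposite sign at -0.33. Its levels were -3.24, -5.99, -3.80 and -3.26 in PKR2 hearts 1 to 4, against -4.04, -3.62, -3.57 and -3.74 in WT hearts 1 to 4. PKR2 2 lay far below every other heart with that probe.

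Of the sodium channel beta subunits, which bind the pore and act in its traffic and adhesion, Scn3b had levels of -2.36, -1.97, -1.49 and -1.69 in PKR2 hearts 1 to 4, against -1.29, -1.36, -1.98 and -1.34 in WT hearts 1 to 4. A single WT heart, WT 3, lay among the PKR2 hearts, and the other 3 WT hearts lay above every PKR2 heart. The difference was -0.38 (SE 0.23, limma adjusted p = 0.99997). The 2 slides that held a heart of each group gave opposite signs, 0.50 on slide 5 and -0.35 on slide 6. Scn2b had levels of -4.34, -3.33, -3.87 and -4.24 in PKR2 hearts 1 to 4, against -3.10, -3.87, -3.71 and -3.99 in WT hearts 1 to 4. The groups overlapped, with a difference of -0.28 (SE 0.27), and the probe was above background on 3 arrays of each group.

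The T-type calcium channel gene Cacna1h had the largest difference of the 21. Its levels (chromosome 17, 25102402 to 25102461, minus strand, mm8) were -0.78, -1.65, -1.54 and -1.61 in PKR2 hearts 1 to 4, against -0.47, -0.94, -0.59 and -0.88 in WT hearts 1 to 4. PKR2 2, 3 and 4 lay below every WT heart, and PKR2 1 lay among the WT hearts. The means were -1.40 ± 0.41 in PKR2 hearts and -0.72 ± 0.23 in WT hearts (SD, n = 4 each). The difference was -0.68 (SE 0.22, 95% interval -1.18 to -0.17), a ratio of 0.626, with an unadjusted limma p of 0.0138 and an adjusted p of 0.99997. It was -0.95 on slide 5 and -0.73 on slide 6. A second, dimmer Cacna1h probe, above background on 4 PKR2 and 3 WT arrays, differed by 0.03. Another, above background on 2 PKR2 arrays and 1 WT array and so not tested, differed by 0.64. The dimmest, on 0 PKR2 arrays and 1 WT array and likewise not tested, differed by -1.12, too close to background for a fold. With the mean over both tested probes the difference was -0.32 and no longer had an unadjusted p under 0.05. The fat markers were lowest in PKR2 1 and PKR2 2, and their part in the Cacna1h difference was not tested. Without these 2 hearts, left out after the data were seen, the Cacna1h difference was -0.86. Without PKR2 1 alone, the PKR2 heart among the WT hearts, it was -0.88.

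The other alpha1 genes differed less. Cacna1g, the second T-type gene, had levels of -0.18, 0.57, 0.41 and 0.63 in PKR2 hearts 1 to 4, against -0.34, 0.52, 0.96 and 0.48 in WT hearts 1 to 4. Heart 1 of each group was the low one, although these numbers do not pair the hearts, and the difference was -0.05 (SE 0.29), against 0.29 with a dimmer probe. Cacna1s had levels of 2.56, 2.41, 2.21 and 2.16 in PKR2 hearts 1 to 4, against 2.20, 2.07, 2.58 and 2.52 in WT hearts 1 to 4, a difference of -0.01 (SE 0.18) that turned to 0.03 under quantile normalization. It was -0.37 on slide 5 and -0.36 on slide 6, and -0.37 with slide fixed as a block. A second Cacna1s probe was above background on 0 arrays.

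Cacna1a had levels of -1.08, -1.52, -2.40 and -1.95 in PKR2 hearts 1 to 4, against -2.11, -0.76, -1.997 and -1.95 in WT hearts 1 to 4. The highest and the next highest value came from different groups, and the difference was -0.03 (SE 0.36). Cacna1d had levels of -4.37, -3.55, -4.04 and -4.35 in PKR2 hearts 1 to 4, against -4.59, -3.38, -3.01 and -4.16 in WT hearts 1 to 4. The WT hearts enclosed the PKR2 hearts, and the difference was -0.29 (SE 0.35). All 5 tested alpha1 genes thus had means below WT; that of Cacna1s turned under quantile normalization, that of Cacna1a with the authors' values, and those of Cacna1g and Cacna1s under normexp background correction.

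The main L-type pore of heart muscle is not among these symbols, and Cacna1c by that name is not analysed here. A pair of probes on chromosome 6 carries no symbol and is described on the array as an L-type calcium channel alpha1 subunit from neurons; they were picked after the descriptions were read. The brighter (118558895 to 118558954, minus strand, mm8) had levels of 2.93, 2.01, 2.40 and 2.47 in PKR2 hearts 1 to 4, against 2.53, 1.68, 2.05 and 1.63 in WT hearts 1 to 4. PKR2 1 was the highest and the groups overlapped. The difference was 0.48 (SE 0.25, limma adjusted p = 0.99997). The other probe differed by 0.23. The 3 probes of Scn2a1, a RefSeq synonym of the neuronal gene Scn2a, were on 0 arrays.

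**Figure D2:**
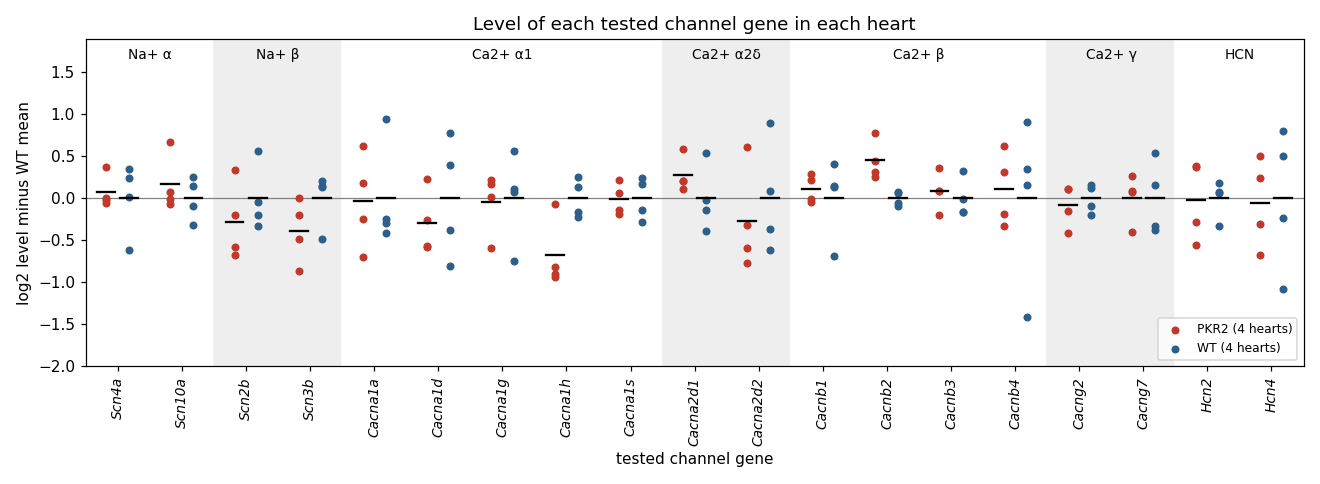
Level of each of 19 tested channel genes in each heart, as log2 signal minus that gene's WT mean, with PKR2 points (red) left of WT points (blue) and a bar at each group's mean; genes are ordered by subunit family. In Cacnb2 every PKR2 point lies above every WT point, and in Cacna1h 3 of the 4 PKR2 points lie below every WT point.

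Cacnb2, which encodes the main beta subunit of the heart's L-type channel, was by brightest probe the 1 tested channel gene whose groups did not overlap. That is 4.76% of those tested, against 1.57% of all features in either direction and 0.701% with every PKR2 heart above every WT heart. Its levels (chromosome 2, 14904039 to 14904098, plus strand, mm8) were 0.77, 0.83, 1.29 and 0.96 in PKR2 hearts 1 to 4, against 0.45, 0.59, 0.58 and 0.42 in WT hearts 1 to 4. The lowest PKR2 heart stood above the highest WT heart. The means were 0.96 ± 0.23 in PKR2 hearts and 0.51 ± 0.09 in WT hearts (SD, n = 4 each). The difference was 0.45 (SE 0.16, 95% interval 0.10 to 0.81), a ratio of 1.37, with an unadjusted limma p of 0.0181 and an adjusted p of 0.99997.

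The Cacnb2 difference was 0.71 on slide 5, 0.54 on slide 6 and 0.62 without PKR2 1 and PKR2 2. A second Cacnb2 probe (chromosome 2, 14881033 to 14881092) had levels of -1.80, -1.62, -1.48 and -1.77 in PKR2 hearts 1 to 4, against -2.09, -1.97, -2.16 and -1.90 in WT hearts 1 to 4. The groups did not overlap there either, with a difference of 0.36. The remaining and dimmest probe, above background on 4 PKR2 and 3 WT arrays, overlapped and differed by 0.04. With the mean over the 3 probes the difference was 0.28, which had no unadjusted p under 0.05.

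The 3 other calcium channel beta genes, which encode alternative partners of the same pores, overlapped between the groups by their brightest probes. Cacnb1, the skeletal muscle partner, had levels of -0.58, -0.65, -0.88 and -0.92 in PKR2 hearts 1 to 4, against -0.74, -0.47, -0.73 and -1.57 in WT hearts 1 to 4, a difference of 0.12 (SE 0.24). Without WT 4, its lowest heart, the Cacnb1 difference was -0.11. Cacnb3 had levels of -1.52, -2.09, -1.80 and -1.80 in PKR2 hearts 1 to 4, against -1.90, -2.05, -2.06 and -1.56 in WT hearts 1 to 4, a difference of 0.09 (SE 0.18). Cacnb4 had levels of -4.37, -3.41, -3.73 and -4.23 in PKR2 hearts 1 to 4, against -5.45, -3.89, -3.14 and -3.70 in WT hearts 1 to 4. It was above background on 4 PKR2 and 2 WT arrays, its WT hearts spread widest of the tested members, and the difference was 0.11 (SE 0.45). Its sign was the opposite on the shared slides, at -0.59 on slide 5 and -0.53 on slide 6. Slide as a fixed block gave a Cacnb4 difference of -0.56, at an unadjusted limma p under 0.05. These slide values hold for the brightest probe only. A second Cacnb4 probe, also above background on 4 PKR2 and 2 WT arrays, differed by 0.93, with 0.58 on slide 5 and 0.58 on slide 6. A dimmer Cacnb4 probe, above background on 1 PKR2 array and 0 WT arrays and so not tested, differed by 0.63. Its groups did not overlap, but it lay too close to background for a fold. All 4 beta genes had higher means in PKR2 hearts under the 75th percentile, median and quantile scalings; Cacnb1, Cacnb3 and Cacnb4 turned under normexp background correction.

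**Figure D3:**
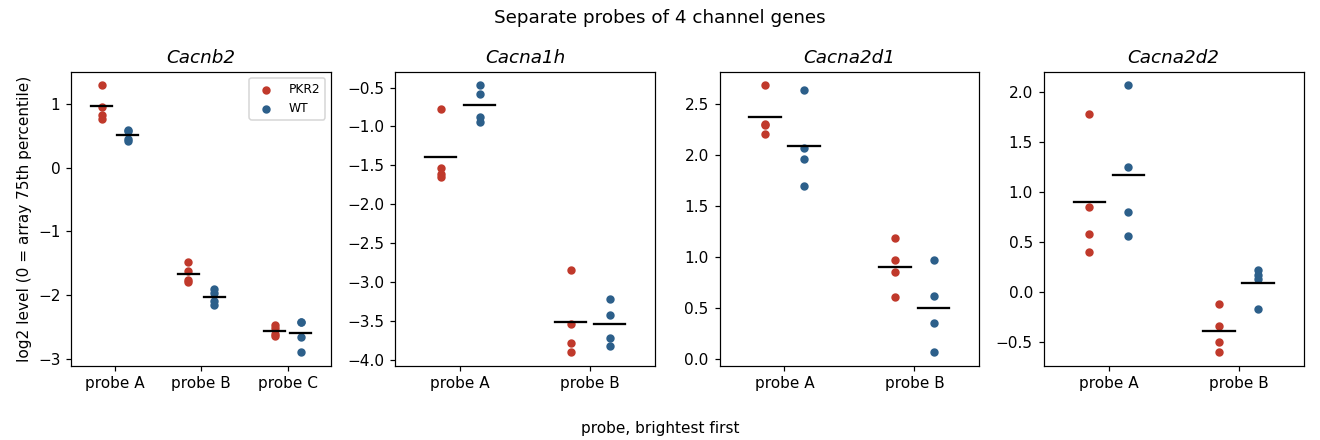
Separate probes of Cacnb2, Cacna1h, Cacna2d1 and Cacna2d2 that were bright enough to be tested, brightest first, with the log2 level of each PKR2 heart (red, left) and each WT heart (blue, right) and a bar at each group's mean; the vertical scale differs between panels. Probes A and B of Cacnb2 separate the groups, and probe B of Cacna1h shows no lower PKR2 mean.

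The alpha2delta subunits are extracellular proteins that raise the number of calcium channels at the surface. Cacna2d1, the main one in heart muscle, had levels of 2.68, 2.29, 2.20 and 2.30 in PKR2 hearts 1 to 4, against 2.63, 1.95, 2.07 and 1.70 in WT hearts 1 to 4. WT 1 lay among the PKR2 hearts and the 3 other WT hearts lay below all of them. The means were 2.37 ± 0.21 in PKR2 hearts and 2.09 ± 0.40 in WT hearts (SD, n = 4 each), and the difference was 0.28 (SE 0.22, 95% interval -0.21 to 0.77). A second Cacna2d1 probe differed by 0.40. Without WT 1 the difference was 0.46, at an unadjusted p under 0.05; with array position as a covariate, which sets the PKR2 hearts against WT 1 alone, it was -0.26.

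Cacna2d2 had levels of 0.40, 0.85, 1.78 and 0.58 in PKR2 hearts 1 to 4, against 0.81, 1.25, 2.07 and 0.56 in WT hearts 1 to 4. The highest heart of each group was the one on slide 5. The difference was -0.27 (SE 0.38), -0.29 within slide 5 and 0.02 within slide 6. A second Cacna2d2 probe, with levels of -0.60, -0.11, -0.34 and -0.49 in PKR2 hearts 1 to 4, against -0.16, 0.17, 0.23 and 0.14 in WT hearts 1 to 4, did not set the slide 5 hearts apart in that way. Its difference was -0.48, and WT 1 alone lay within the PKR2 range.

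The 2 tested gamma genes lay close to the limit of detection. Cacng2, a partner of glutamate receptors in the brain, had levels of -4.21, -4.46, -3.95 and -3.94 in PKR2 hearts 1 to 4, against -3.89, -3.93, -4.25 and -4.15 in WT hearts 1 to 4, a difference of -0.08 (SE 0.17). Cacng7 had levels of -3.13, -3.79, -3.30 and -3.32 in PKR2 hearts 1 to 4, against -3.77, -3.23, -2.86 and -3.72 in WT hearts 1 to 4, a difference of 0.01 (SE 0.24) whose sign turned under median scaling and quantile normalization. The groups overlapped in both genes.

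Among the pacemaker channels, Hcn4 (chromosome 9, 58658727 to 58658786, plus strand, mm8) had levels of -2.05, -1.79, -2.60 and -2.97 in PKR2 hearts 1 to 4, against -1.50, -1.79, -2.53 and -3.37 in WT hearts 1 to 4. The WT hearts enclosed the PKR2 hearts, and the hearts on slides 5 and 6 were the dimmer ones in both groups. The difference was -0.05 (SE 0.41, 95% interval -0.98 to 0.87), so an interval of this width leaves a change of nearly 1 log2 unit either way within reach. Hcn2, the other HCN gene on every array, had levels of -1.05, -1.04, -1.70 and -1.98 in PKR2 hearts 1 to 4, against -1.36, -1.24, -1.35 and -1.75 in WT hearts 1 to 4. PKR2 1 and PKR2 2 stood above all WT hearts and PKR2 4 below all of them, and the difference was -0.02 (SE 0.24). With the authors' deposited values the Hcn2 difference was 0.00037.

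**Figure D4:**
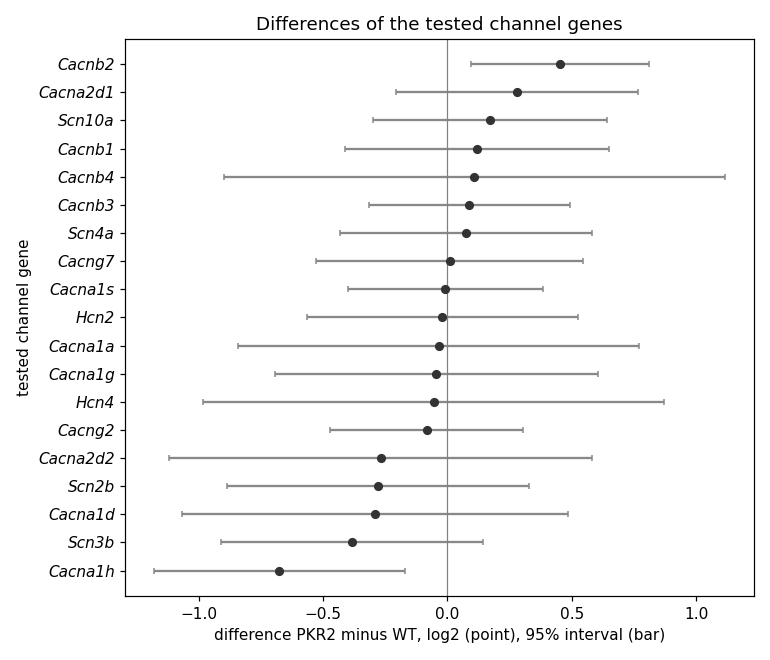
Difference (PKR2 minus WT, log2) of each of 19 tested channel genes, ordered by size, as a point with its 95% interval from limma. The intervals of Cacnb2 (0.10 to 0.81) and Cacna1h (-1.18 to -0.17) lie off 0 before adjustment, and the other 17 include 0.

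Slides 5 and 6, which held a heart of each group, differed from each other in many genes. The median difference of the tested channel genes was -0.16 on slide 5 and 0.06 on slide 6, against -0.02 and -0.06 over all tested features. Cacna1d differed by -1.03 on slide 5 and -0.19 on slide 6, and Cacna1a by -0.40 and -0.01. Hcn2 differed by -0.36 on slide 5 and -0.23 on slide 6, and Scn2b by -0.16 and -0.25. The signs of these genes were the same on both slides, as was that of Scn10a, at 0.03 on slide 5 and 0.30 on slide 6. Signs were opposite in Cacna1g, at -0.55 on slide 5 and 0.15 on slide 6, and in Hcn4, at -0.07 and 0.41. They were also opposite in Cacnb1 (-0.15 on slide 5, 0.65 on slide 6), Cacnb3 (0.25 and -0.24) and Scn4a (-0.03 and 0.55). Cacng7 likewise had -0.45 on slide 5 and 0.40 on slide 6. Cacna2d1 differed by 0.13 on slide 5 and 0.61 on slide 6, and Cacng2 by 0.30 and 0.21, against -0.08 over all hearts. Each value rests on 1 heart a group.

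The genes that act on these channels gave 0 calls as well, in 4 lists. Of 16 tested sodium channel partners (anchoring, trafficking and ubiquitin ligase genes), 13 had higher and 3 lower means in PKR2 hearts and the median difference was 0.06; under median scaling the split was 8 to 8. The smallest p-values belonged to the ubiquitin ligase gene Nedd4, at 0.12 (SE 0.13), and to Cxadr, a receptor of the intercalated disc, at 0.22 (SE 0.27). Of 15 tested calcium channel partners, which include the RGK GTPases that bind beta subunits and damp the current, 5 had higher and 10 lower means, with a median of -0.02; under quantile normalization 9 were higher. The RGK gene Rem1 differed by 0.46 (SE 0.27) and Bin1, which shapes T-tubules, by -0.20 (SE 0.15).

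Of 16 tested regulators of pacemaker and conduction cells, 8 had higher and 8 lower means, with a median of 0.01. Irx3, a transcription factor of the ventricular conduction system, differed by -0.64 (SE 0.33) and Cntn2, a surface marker of Purkinje cells, by -0.36 (SE 0.22), both with overlapping groups. Hopx, at 0.21 (SE 0.15), was the 1 gene of the 16 whose groups did not overlap. Every PKR2 heart lay above every WT heart there, as in 0.701% of all features. Shox2 and Isl1, transcription factors of the sinoatrial node, were on 0 arrays. Of 14 tested genes of calcium release and removal, 5 had higher and 9 lower means, with a median of -0.04; under quantile normalization 9 were higher. Casq2, the calcium-binding protein of the sarcoplasmic reticulum, differed by 0.25 (SE 0.16) and its partner Trdn by -0.39 (SE 0.30). No gene of the 4 lists had an unadjusted limma p under 0.05 in this fit. Some alternatives gave such genes, and none gave a call. The most in a list was 3 of the 16 regulators of pacemaker and conduction cells under normexp, against 2.39% of all features.

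Other marker lists give the setting of these values. Of 14 cardiomyocyte markers, 13 had higher means in PKR2 hearts and their median difference was 0.08; under median scaling 10 were higher. Without PKR2 1 and PKR2 2 the split was 7 to 7. Their mean centred level was 0.08, 0.25, 0.03 and -0.04 in PKR2 hearts 1 to 4, against -0.09, -0.02, -0.07 and -0.13 in WT hearts 1 to 4. Of 9 tested Schwann cell markers 7 had lower means, with a median of -0.16 and mean centred levels of -0.17 to 0.03 in PKR2 hearts, against 0.00 to 0.21 in WT hearts. The 8 atrial markers had a median difference of 0.00. Median differences of the ventricular, skeletal muscle, smooth muscle, neuron, endothelial, fibroblast, and macrophage and blood lists lay between -0.04 and 0.08. Under normexp background correction they ran from -0.56 (neuron) to 0.43 (ventricular), and all 14 cardiomyocyte markers were higher, with a median of 0.52; with array weights 7 of the 14 were higher. The part of the fat, cardiomyocyte and Schwann cell lists in the channel genes' values was not tested.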

How the data were processed

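Total RNA from each heart was labelled with Cy3 and hybridised to a 1-colour array, per the labels' protocols. The deposited scanner values are spot intensity on a linear scale, background-subtracted and spatially detrended by Agilent Feature Extraction 9.5.1.1 with probe positions in build mm8, per the file headers, with no normalization between arrays. A further table, the authors' deposited values, also holds intensity, linear and uncentred, with column medians of 139 to 144. On the log2 scale its values correlated at r of 0.998 to 1.00 with the scanner's mean spot signal over probes above 2000. Its normalization method is not given in the sources used here, and it served as an alternative.

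Processed signals were taken to log2, with no pseudocount, and each array's 75th percentile over non-control probes was subtracted. Control and outlier-flagged spots were left out, saturated spots kept, and spots of a probe averaged (43379 spots, 41174 probes). The 41 genes had 76 probes, and each gene, as every feature name in the files, was represented by its brightest probe by mean signal over the 8 arrays. A feature was tested if well above background on at least 3 of 4 arrays of 1 group or more. The group difference was fitted without covariates by lmFit and eBayes (limma 3.58.1, R 4.3.3), with p-values adjusted by Benjamini-Hochberg over all 15681 features at 0.05; the package data.table (version 1.17.8) read the files. The code was tested on simulated data. For a fold bound, the mean of the brighter group was set against a floor for the dimmer one: on each array its own signal or the lowest signal well above background, whichever was higher, then averaged.

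All 41 symbols are among the RefSeq symbols of GRCm38.p6, and the 58 probe accessions that matched it carried the same symbol. The rule was to name every channel gene above background on at least 1 array, other probes where detection or direction differed, and the 2 genes of smallest p in each of 4 pathway lists. A few of these genes are left out of the text and figures, while counts over the set include them. The genes and lists were chosen with earlier results of these data known. Arrays correlated at r of 0.972 to 0.991 within PKR2, 0.971 to 0.987 within WT and 0.965 to 0.988 between groups (across features, which are not replicates). The arrays lay on 6 slides, of which slides 5 and 6 each held 1 PKR2 and 1 WT array; all PKR2 arrays and WT 1 lay at position 4. Alternatives were normexp (offset 50), median scaling, quantile normalization, the authors' values, 3 filters, the mean over probes, slide, position and scan range, another variance model, array weights, a threshold of 0.1 and leaving out each array. The number of arrays limits the precision.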

Additional observations from a re-analysis of the deposited data

Results flagged for a closer look

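In 4 of the 42 groups of 4 hearts examined (21 genes in 2 genotypes), 1 heart lay far from the other 3 by Dixon's test of the gap over the range at the 95% level, where chance alone gives about 2.1 such groups. Cacna1h in PKR2 1 had a level of -0.78, with the nearest PKR2 heart at -1.54; without PKR2 1 the difference was -0.88. Scn3b in WT 3 had a level of -1.98, with the nearest WT heart at -1.36; without WT 3 the difference was -0.55, with an unadjusted limma p under 0.05. Scn4a in PKR2 1 had a level of -0.88, with the nearest PKR2 heart at -1.25; without PKR2 1 the difference was -0.03 in place of 0.07. Cacna1a in WT 2 had a level of -0.76, with the nearest WT heart at -1.95; without WT 2 the difference was 0.28 in place of -0.03.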

How the results depend on the processing

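No channel gene had an adjusted p under 0.05 in any alternative, nor under 0.1 in the fit reported; the smallest over the alternatives was 0.445, with array weights. The count over all features was 1 under median scaling, with probes above background on all 8 arrays, with slide as a random block, with array position, with trended robust variance and without PKR2 3, and 0 to 1 on leaving out 1 array. Channel genes at an unadjusted p under 0.05 numbered 1 under normexp and under median scaling (Cacna1h in both) and 0 with the mean over probes. The shares of all features there were 2.39%, 2.12% and 2.59%. With slide as a fixed block there were 3 (Cacna1h, Cacnb2 and Cacnb4), against 6.36% of all features. With array weights there were 3 (Cacna1h, Cacnb2 and Cacna1d), against 11.1% of all features. On leaving out 1 array there were 1 to 3, against 1.28% to 4.57% of all features. With array position Cacna1h differed by -0.93, Cacnb2 by 0.51, Cacnb4 by 1.52 and Scn2b by -0.85. Without PKR2 3 the 1 gene was Cacna1h, and Cacnb2 differed by 0.34. Cacna1h (-0.93 to -0.32), Cacnb2 (0.28 to 0.63) and Scn2b kept their sign in every alternative that tested them. With no filter on dim probes 41 channel genes entered the fit. The median difference of the channel genes moved to -0.28 under normexp, where that of all tested features was -0.012. It ran from -0.11 to 0.087 on leaving out 1 array. No pairing by replicate number could be made, since the labels give none; the slide block compares within the pairs on slides 5 and 6.

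These differences changed sign, by setting; the cause was not tested. Under normexp: Cacna1g 0.0066, Cacna1s 0.21, Cacnb1 -0.041, Cacnb3 -0.27, Cacnb4 -0.80, Cacng7 -0.75, Scn10a -0.37 and Scn4a -0.17. Under quantile normalization: Cacna1s 0.035 and Cacng7 -0.047. Under median scaling: Cacng7 -0.045. With the authors' values: Cacna1a 0.12, Cacng7 -0.026 and Hcn2 0.00037. With the mean over probes: Cacna1g 0.12 and Scn10a -0.081. With slide fixed as a block (slides 5 and 6 carry the estimate): Cacnb4 -0.56, Cacng2 0.26, Cacng7 -0.023, Hcn4 0.17 and Scn3b 0.074. With slide as a random block: Cacnb4 -0.12, Cacng2 0.033, Cacng7 -0.0025 and Hcn4 0.022. With array position, which sets PKR2 against WT 1 alone: Cacna1a 0.37, Cacna1d 0.51, Cacna1g 0.70, Cacna1s 0.13, Cacna2d1 -0.26, Cacna2d2 0.098, Cacnb1 -0.014, Scn10a -0.086 and Scn4a -0.17. With scan range as a block: Cacna1a 0.035, Cacna1g 0.019 and Cacng7 -0.0061. With array weights: Cacnb1 -0.10, Cacnb4 -0.28, Cacng2 0.10, Cacng7 -0.13 and Scn4a -0.069. Without PKR2 1 and PKR2 2, chosen after the data were seen: Cacna1g 0.12, Cacna2d2 0.0077, Cacnb1 -0.025, Cacng2 0.11, Scn10a -0.036 and Scn4a -0.038.

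Leaving out 1 array turned the sign of these differences, with their ranges: Cacna1a -0.25 to 0.28, Cacna1g -0.29 to 0.14, Cacna1s -0.10 to 0.071, Cacna2d2 -0.56 to 0.031, Cacnb1 -0.11 to 0.25, Cacnb3 -0.0051 to 0.20, Cacnb4 -0.36 to 0.41, Cacng2 -0.15 to 0.025, Cacng7 -0.12 to 0.19, Hcn2 -0.15 to 0.16, Hcn4 -0.41 to 0.21 and Scn4a -0.13 to 0.19. Another 7 genes kept theirs. For dim probes such as Cacnb4 and the gamma genes the signal over background limits the values.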
